A study of Mus musculus with 15 samples.

Results

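Subplate neuron genes were followed as 7 listed markers of the subplate, namely Nr4a2, Cplx3, Lpar1, Nxph4, St18, Moxd1, and Tmem163, in the embryonic brain of mice that carry Tbr1-K228E. The markers come from a list of names, and the rule uses none of their values here, although the list was drawn up with earlier results of these data known. Their symbols were matched to the Ensembl identifiers of the deposited table, and 7 of 7 were found among its 19475 genes. The subplate is the layer of early-born neurons that lies beneath the cortical plate of the developing neocortex. Its neurons receive transient synapses from thalamic axons before those axons enter the cortical plate, and many of the cells are later lost while others persist as the deepest cortical layer. Tbr1 encodes a T-box transcription factor that is strongly expressed in subplate neurons, in neurons of the sixth cortical layer, and in Cajal-Retzius cells, all of which are born early.

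RNA-Seq had been performed on 15 embryos of age E16.5, of which 5 were WT, 5 were Tbr1+/K228E, and 5 were Tbr1K228E/K228E. All embryos were of the C57BL/6J strain, and each genotype held 3 females and 2 males. The K228E codon change was knocked into exon 1 of the endogenous Tbr1 gene, so it was present in all cells of the mutant embryos, and the selection cassette had been removed with a Cre recombinase expressed in the male germline. The labels give brain as the tissue and the title of the series says whole brain, whereas the methods of the study name the forebrain. The labels name no litters, and each library is labelled as a sample of its own. Values are normalized read counts per gene, and their sum per embryo ranged from 30.5 to 31.8 M (megareads). The unscaled depth was estimated from the step of the lowest values at 26.3 to 38.0 M reads per embryo. Only 18.1% to 45.4% of the low values of an embryo lay at whole multiples of that step, so the estimate is rough. In bulk tissue of this kind, fewer cells of a type and less RNA per cell cannot be told apart.

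Tbr1 itself was measured first, because it is the mutated gene. In normalized reads, WT embryos had 3537 ± 1049 (SD, n = 5), against 6269 ± 1532 in Tbr1+/K228E, and 11366 ± 3160 in Tbr1K228E/K228E embryos. It rose by 1.69 on the log2 scale in Tbr1K228E/K228E relative to WT embryos (limma, adjusted p = 0.00437). The difference of 0.85 between Tbr1+/K228E and WT embryos did not pass the adjusted threshold (limma, unadjusted p = 0.00225, adjusted p = 0.999; exact permutation p = 0.0159). Even so, 4 of 5 Tbr1+/K228E embryos lay above every WT embryo. Tbr1K228E/K228E and Tbr1+/K228E embryos also differed by 0.85, short of the threshold (limma, unadjusted p = 0.00231, adjusted p = 0.614; exact permutation p = 0.0159).

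Embryos differed widely in the levels of genes of tissue outside the cortex. The summed normalized count of 18 Hox genes, a family active in hindbrain and spinal cord, was 252 to 3966 in 6 embryos (WT replicates 1, 2, and 4, Tbr1+/K228E replicate 1, and Tbr1K228E/K228E replicates 1 and 2) and 7.77 to 53.7 in the other 9. Col1a1, a collagen of the meninges, was at most 23.4 in 3 embryos (WT replicate 3 and Tbr1K228E/K228E replicates 3 and 4) and 664 or more in the other 12. In Tbr1+/K228E replicate 2, the midbrain genes Pitx3 and Slc6a3 had values of 0 and 9.33, against at least 6.26 and 60.4 in the other embryos. These values are given again beside each subplate gene that moved with them.

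The 7 genes covered a broad range of levels. Per kilobase of exonic length, Nxph4 had the highest mean level over the 15 embryos, 376 ± 118 normalized reads (SD), followed by Nr4a2 (269 ± 51.0), Tmem163 (211 ± 43.9), St18 (108 ± 17.9), Lpar1 (98.0 ± 31.8), Moxd1 (22.2 ± 7.68), and Cplx3 (2.85 ± 1.43). Of all genes matched to the annotation, 77.4% had a lower level per kilobase than Nxph4, and 14.1% had a lower level than Cplx3. In this order, Nxph4 was above Nr4a2 in 12 of 15 embryos, Nr4a2 above Tmem163 in 11, and St18 above Lpar1 in 9, and the ranges of each of these neighbours overlapped. Tmem163 was above St18 in each of the 15 embryos although their ranges over embryos overlapped. Only Lpar1 above Moxd1 and Moxd1 above Cplx3 were separated in range. Among all 15 embryos, the coefficient of variation of the normalized read count was smallest for St18 (16.6%) and Nr4a2 (19.0%) and largest for Cplx3 (50.2%).

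**Figure D1:**
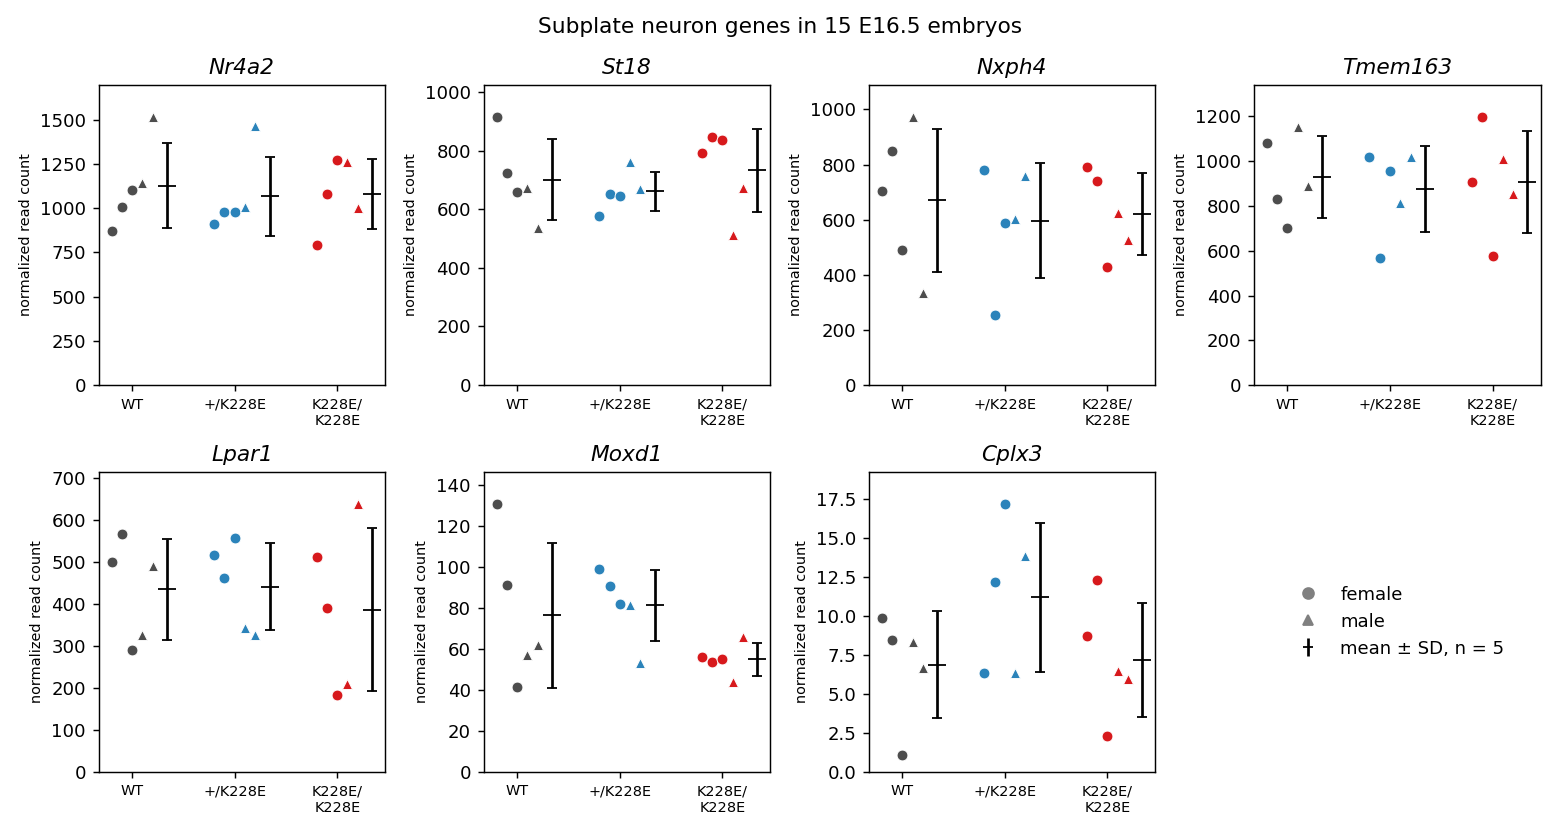
Normalized read count (vertical axes, linear, from 0) of each of the 7 subplate neuron genes in every embryo, by genotype on the horizontal axis. Circles are females, triangles are males, and the horizontal line and error bar beside them are the mean and SD (n = 5). The embryos of each genotype overlap with those of the other genotypes for all 7 genes, and the Tbr1K228E/K228E embryos are closest together for Moxd1 (43.8 to 66.1).

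Expression of these genes was then compared between genotypes, to find out whether the mutant Tbr1 allele was accompanied by a change in the subplate. None of the 7 genes passed the test for a change in any of the 3 comparisons, although the intervals leave room for moderate differences. In Tbr1K228E/K228E relative to WT embryos, 0 of 7 genes passed the threshold (limma, adjusted p = 1.00 for each), 0 had an unadjusted p under 0.05, and in 0 were the embryos of both genotypes without overlap. Among all 16507 tested genes, 0.127% passed the threshold in that comparison, 3.23% had an unadjusted p under 0.05, and 0.594% did not overlap, so a count of 0 among 7 genes is near this background. The median log2 fold change of the 7 genes was -0.05, beside -0.00 over all tested genes, with 2 genes higher and 5 lower.

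No subplate gene passed the threshold in Tbr1+/K228E embryos either. In Tbr1+/K228E relative to WT embryos, 0 of 7 genes passed the threshold (limma, adjusted p of at least 0.999) or had an unadjusted p under 0.05, against 0.00% and 1.79% of all genes, and 0 were without overlap, against 0.260%. Their median log2 fold change was -0.07, with 3 genes higher and 4 lower. Between Tbr1K228E/K228E and Tbr1+/K228E embryos, 0 of 7 genes passed (limma, adjusted p of at least 0.996) or had an unadjusted p under 0.05, against 0.0788% and 3.30% of all genes, and 0 were without overlap, against 0.878%. Here the median was 0.02, with 4 genes higher and 3 lower. Both mutant genotypes were compared with the same 5 WT embryos, so the comparisons with WT are not independent of each other.

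**Figure D2:**
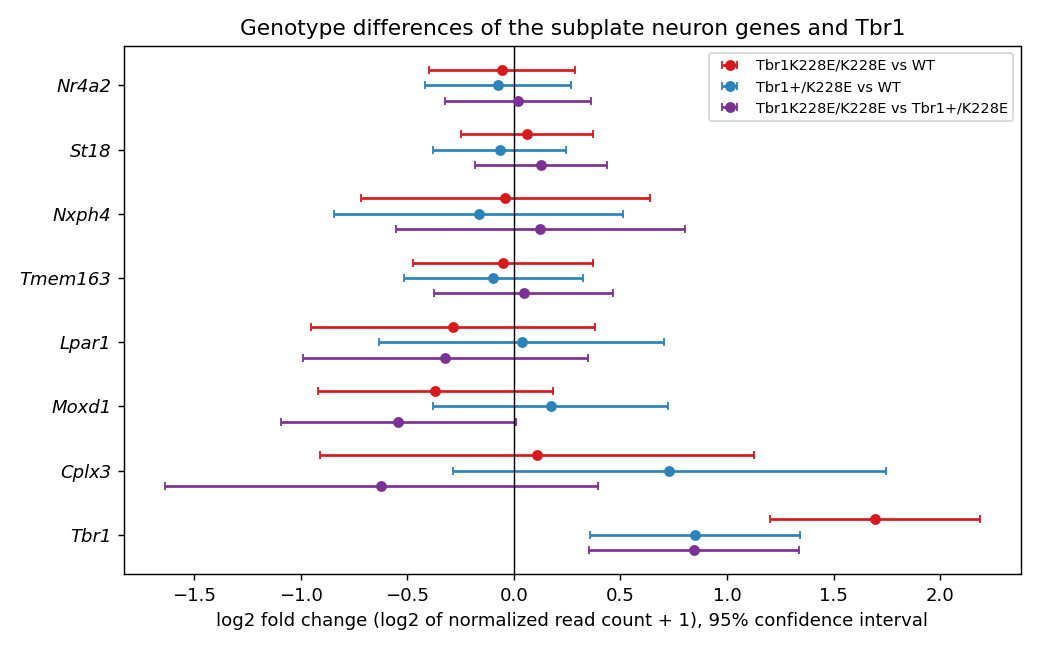
Log2 fold change of each of the 7 subplate neuron genes and of Tbr1 on the log2(normalized read count + 1) scale in the 3 genotype comparisons. Points are limma estimates and bars are 95% confidence intervals (n = 5 embryos per genotype). The interval includes 0 for each of the 7 genes in each comparison, and the widest intervals are those of Cplx3.

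Among the transcription factors of the subplate, Nr4a2 encodes an orphan nuclear receptor that is also required for midbrain dopaminergic neurons. Its gene lies on chromosome 2 (ENSMUSG00000026826, GRCm38 chr2:57106830-57124003, minus strand). Its normalized read count was 869, 1004, 1102, 1142, and 1514 in the WT embryos, 908, 980, 976, 1009, and 1462 in the Tbr1+/K228E embryos, and 794, 1077, 1270, 1258, and 1001 in the Tbr1K228E/K228E embryos (replicates 1 to 5 in order). The 3 ranges lay over each other, and a single embryo stood well above the rest in both the WT and the Tbr1+/K228E genotype. Tbr1K228E/K228E and WT embryos differed by -0.06 on the log2 scale (95% confidence interval, -0.40 to 0.29; two-sided exact permutation p = 0.778), and Tbr1+/K228E and WT embryos by -0.08 (exact permutation p = 0.627).

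Because Nr4a2 is also a gene of dopaminergic neurons, its values were set beside genes of those neurons. The WT embryo with the highest Nr4a2 (1514) also had the highest value of Slc6a3, the dopamine transporter, at 341, and the Tbr1+/K228E embryo with the highest Nr4a2 (1462) had a Slc6a3 value of 245 and the highest value of Pitx3, a homeodomain factor of these neurons, at 42.3. Other genes of the list did not follow, and in that WT embryo En2, a homeobox gene of the midbrain, was 248, against 760, 1287, and 1315 in WT replicates 1, 2, and 4. Over the 15 embryos, the deviations of Nr4a2 were not related past the threshold to the mean log2 value of the 10 listed dopaminergic genes (r = 0.14, permutation p = 0.606, adjusted p = 0.813; rho = 0.22, permutation p = 0.425, adjusted p = 0.648; r = 0.35 without the 2 farthest embryos). In Tbr1+/K228E replicate 2, in which Pitx3 was at 0 and Slc6a3 at 9.33, Nr4a2 was still 980, within the range of the other embryos of that genotype. Of the 10 listed dopaminergic genes, 0 passed the threshold in any genotype comparison (limma), against 0.127%, 0.00%, and 0.0788% of all tested genes. Likewise, 0 had an unadjusted p under 0.05, against 3.23%, 1.79%, and 3.30%. Their median log2 fold change was 0.01 in Tbr1K228E/K228E relative to WT embryos, with 5 higher and 5 lower. It was -0.54 in Tbr1+/K228E relative to WT (2 higher, 8 lower) and 0.53 between the mutant genotypes (8 higher, 2 lower). Their summed normalized count was 2114 to 3756 in WT, 1558 to 4107 in Tbr1+/K228E, and 1781 to 4552 in Tbr1K228E/K228E embryos. The part of these cells in the Nr4a2 values was not tested beyond these measurements.

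St18 encodes a zinc finger factor of the Myt1 family and lies on chromosome 1 (ENSMUSG00000033740, chr1:6487231-6860940, plus strand). St18 had normalized read counts of 914, 723, 657, 673, and 535 in WT, 578, 653, 644, 762, and 669 in Tbr1+/K228E, and 793, 848, 836, 510, and 674 in Tbr1K228E/K228E embryos. The highest and the lowest embryo were a WT and a Tbr1K228E/K228E embryo, and the genotypes overlapped throughout. St18 was the most tightly measured of the 7 genes. Its difference between Tbr1K228E/K228E and WT embryos was 0.06 on the log2 scale (95% confidence interval, -0.25 to 0.37; exact permutation p = 0.722), and that between Tbr1+/K228E and WT embryos was -0.07 (exact permutation p = 0.667).

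Nxph4 encodes a secreted neurexophilin, a protein family that binds alpha-neurexins at synapses, and lies on chromosome 10 (ENSMUSG00000040258, chr10:127525473-127534559, minus strand). The normalized read count of Nxph4 was 703, 850, 490, 972, and 333 in WT, 781, 255, 588, 602, and 758 in Tbr1+/K228E, and 789, 741, 429, 626, and 526 in Tbr1K228E/K228E embryos. The lowest value was that of Tbr1+/K228E replicate 2, in which Pitx3 was at 0 and Slc6a3 at 9.33. Not all listed dopaminergic genes were low in that embryo, as Slc18a2, another gene of that list, was at 1233. The highest Nxph4 value was that of WT replicate 4, with a Hox sum of 3277. Nxph4 differed by -0.04 on the log2 scale between Tbr1K228E/K228E and WT embryos (95% confidence interval, -0.72 to 0.64; exact permutation p = 0.881). The 6 embryos with Hox sums of at least 252 had Nxph4 values of 703 to 972 (median 785), whereas the other 9 had values of 255 to 758 (median 526). With the log2 of the Hox sum as a covariate, the estimate between Tbr1K228E/K228E and WT embryos was 0.15. The part of hindbrain tissue in the Nxph4 values was not tested further.

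Tmem163, a zinc-transporting membrane protein of synaptic vesicles, lies on chromosome 1 (ENSMUSG00000026347, chr1:127486546-127679548, minus strand). Tmem163 values were 1079, 830, 700, 1151, and 889 in WT, 1020, 569, 957, 814, and 1017 in Tbr1+/K228E, and 908, 1197, 575, 1008, and 854 in Tbr1K228E/K228E embryos. A low embryo was present in each genotype, namely WT replicate 3, Tbr1+/K228E replicate 2, and Tbr1K228E/K228E replicate 3, and these were the 3 embryos with the lowest midbrain scores (4.28 to 6.56, against at least 7.32 in the others), the score being the mean log2 value of the 10 dopaminergic genes. Tmem163 differed by -0.05 on the log2 scale between Tbr1K228E/K228E and WT embryos (95% confidence interval, -0.47 to 0.37; exact permutation p = 0.817) and by -0.10 between Tbr1+/K228E and WT embryos (exact permutation p = 0.651). Exons of Tmem163 overlap exons of Mgat5 on the opposite strand, and the library kit does not mark strand, so reads from the shared stretch cannot be told apart.

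Lpar1 encodes a receptor for lysophosphatidic acid and lies on chromosome 4 (ENSMUSG00000038668, chr4:58435255-58553898, minus strand). Normalized read counts of Lpar1 were 500, 566, 290, 327, and 489 in WT, 516, 462, 558, 342, and 326 in Tbr1+/K228E, and 511, 390, 183, 209, and 638 in Tbr1K228E/K228E embryos. The 3 embryos with Col1a1 values of 23.4 or less had the lowest Lpar1 values of all 15 embryos (290, 183, and 209), and the embryo with the highest Lpar1 value (638) had a Col1a1 value of 3561. Lpar1 differed by -0.29 on the log2 scale between Tbr1K228E/K228E and WT embryos (95% confidence interval, -0.95 to 0.38; exact permutation p = 0.476). Leaving out single embryos gave estimates from -0.51 (without Tbr1K228E/K228E replicate 5) to -0.058 (without Tbr1K228E/K228E replicate 3). Without the 3 embryos of low Col1a1 the difference was 0.12, and with the meningeal score as a covariate it was -0.07. Both settings were chosen after the data were seen. The summed normalized count of the 10 meningeal genes was 1599 to 44390 in WT, 7512 to 28174 in Tbr1+/K228E, and 1681 to 33385 in Tbr1K228E/K228E embryos. In the 3 comparisons, 0 of the 10 genes passed the threshold (limma), against 0.127%, 0.00%, and 0.0788% of all tested genes. Likewise, 0 had an unadjusted p under 0.05, against 3.23%, 1.79%, and 3.30%.

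Moxd1 encodes a monooxygenase related to dopamine beta-hydroxylase and lies on chromosome 10 (ENSMUSG00000020000, chr10:24223517-24302790, plus strand). Moxd1 was measured at 131, 91.3, 41.2, 57.1, and 62.2 in WT, 99.4, 90.9, 82.2, 81.4, and 53.4 in Tbr1+/K228E, and 55.9, 53.5, 55.3, 43.8, and 66.1 in Tbr1K228E/K228E embryos. The Tbr1K228E/K228E embryos lay close together, below 4 of 5 Tbr1+/K228E embryos, above the lowest WT embryo, and overlapping with both genotypes. Between Tbr1K228E/K228E and Tbr1+/K228E embryos, Moxd1 differed by -0.54 on the log2 scale (95% confidence interval, -1.09 to 0.01; limma, adjusted p = 0.996), and the exact permutation test gave p = 0.0397 before any adjustment, the smallest of the 21 such tests of the 7 genes. The difference between Tbr1K228E/K228E and WT embryos was -0.37 (95% confidence interval, -0.92 to 0.18; exact permutation p = 0.262), and without WT replicate 1, the embryo at 131, it was -0.15. All 10 meningeal genes were lower in Tbr1K228E/K228E than in Tbr1+/K228E embryos, with a median log2 fold change of -1.27 and none past the threshold. With the meningeal score as a covariate the Moxd1 estimate in that comparison was -0.33, and without the 3 embryos of low meningeal score it was -0.45.

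The promoters of Lpar1 and Moxd1 are shown because these genes had the estimates farthest from 0 among the 7 between Tbr1K228E/K228E and WT embryos, short of the threshold, and they were searched for the binding sequence of T-box factors. The windows run from 250 bases before to 50 bases after the annotated start and were taken from RefSeq on GRCm38.p6, in which 5 of the 7 genes were matched. The Lpar1 window shown spans chr4:58553244-58553543 on the minus strand and the Moxd1 window spans chr10:24223267-24223566 on the plus strand, and capitals mark the core motif GGTGTG.
Lpar1: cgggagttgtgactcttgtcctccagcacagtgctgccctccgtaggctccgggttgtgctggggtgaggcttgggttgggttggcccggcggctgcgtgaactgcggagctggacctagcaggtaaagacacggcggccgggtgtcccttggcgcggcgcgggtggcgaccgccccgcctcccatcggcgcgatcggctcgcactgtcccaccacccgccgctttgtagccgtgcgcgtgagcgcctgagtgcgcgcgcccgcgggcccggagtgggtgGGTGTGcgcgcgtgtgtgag
Moxd1: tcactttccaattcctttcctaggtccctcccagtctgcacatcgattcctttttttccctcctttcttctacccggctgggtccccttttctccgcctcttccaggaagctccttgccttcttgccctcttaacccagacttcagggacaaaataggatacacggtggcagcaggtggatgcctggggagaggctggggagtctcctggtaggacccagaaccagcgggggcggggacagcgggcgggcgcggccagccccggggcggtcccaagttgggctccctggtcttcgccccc
The T-box motif AGGTGTGA was searched on both strands (reverse complement TCACACCT) and was found in 1.28% of 32851 promoters and in none of the 7 windows of the 5 matched genes. The core GGTGTG, which is part of the longer motif (reverse complement CACACC), was found in 19.0% of promoters, and among the 7 windows only in this Lpar1 window, 31 bases after the start. A match describes the letters alone, and the absence of a match says only that they do not occur in these windows.

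Cplx3 encodes a complexin that regulates vesicle release, and lies on chromosome 9 (ENSMUSG00000039714, chr9:57599992-57606281, minus strand). Its level was low, with normalized read counts of 9.9, 8.4, 1.1, 8.3, and 6.7 in WT, 6.4, 12.2, 17.2, 6.4, and 13.8 in Tbr1+/K228E, and 8.7, 12.3, 2.3, 6.5, and 6.0 in Tbr1K228E/K228E embryos. The 2 highest values were in Tbr1+/K228E embryos, but 2 of the 5 embryos of that genotype were within the WT range. Cplx3 differed by 0.73 between Tbr1+/K228E and WT embryos on the log2(normalized read count + 1) scale (95% confidence interval, -0.29 to 1.75; exact permutation p = 0.183) and by 0.11 between Tbr1K228E/K228E and WT embryos (exact permutation p = 0.794). Both estimates rested on WT replicate 3, the embryo with the lowest Cplx3 value, without which they were 0.30 and -0.32. Cplx3 is also a gene of retinal neurons and the pineal gland shares many photoreceptor genes with the retina, so Crx, a photoreceptor and pineal factor, was set beside it. Crx was 40.5 and 43.8 in Tbr1+/K228E replicates 2 and 3, in which Cplx3 was 12.2 and 17.2, and at most 11.9 in the other 13 embryos. The third embryo of that genotype with a high Cplx3 value (13.8) had a Crx value of 7.31. The study, which used DESeq2 and another adjustment, reported Crx as upregulated in Tbr1+/K228E relative to WT mice. Its qRT-PCR, although similar in direction, did not establish that change. Of 6 photoreceptor and pineal genes, 0 passed the threshold (limma; 0, 2, and 1 at an unadjusted p under 0.05 in the 3 comparisons, against 3.23%, 1.79%, and 3.30% of all tested genes), and their summed normalized count was 674 to 1110 in WT, 589 to 1292 in Tbr1+/K228E, and 415 to 1574 in Tbr1K228E/K228E embryos. Their part in the Cplx3 values was not tested.

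These unadjusted intervals describe how precisely each gene was measured, and a difference of the size of their half-width would not have passed the adjusted threshold. The half-width of the 95% confidence interval was equal to a 1.24-fold difference for St18, 1.27-fold for Nr4a2, 1.34-fold for Tmem163, 1.46-fold for Moxd1, 1.59-fold for Lpar1, 1.60-fold for Nxph4, and 2.02-fold for Cplx3. For St18, the interval of the fold change of Tbr1K228E/K228E over WT ran from 0.841 to 1.29, and for Tmem163 it ran from 0.721 to 1.29. The intervals of Moxd1, Lpar1, Nxph4, and Cplx3 were wider than those of 82.0% to 94.8% of all tested genes.

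Deviations of each embryo from its genotype mean were correlated on the log2 scale between the 21 pairs of genes over 15 embryos, which share libraries and scaling. Pearson's r ranged from -0.63 to 0.73, and 0 of 21 pairs had an adjusted permutation p under 0.05 by Pearson's r, against 4 by Spearman's rho, of which 2 were positive and 2 negative. Nxph4 and Tmem163 had the highest coefficient (r = 0.73, permutation p = 0.00257, adjusted p = 0.0540; rho = 0.70, permutation p = 0.00475, adjusted p = 0.0249), which was 0.76 without the 2 farthest embryos. Nr4a2 was inversely related to Moxd1 (r = -0.63, permutation p = 0.0123, adjusted p = 0.124; rho = -0.79, permutation p = 0.000680, adjusted p = 0.0143; r = -0.56 without the 2 farthest embryos). Nr4a2 was likewise inversely related to Lpar1 (r = -0.56, permutation p = 0.0296, adjusted p = 0.124; rho = -0.72, permutation p = 0.00338, adjusted p = 0.0237; r = -0.76 without the 2 farthest embryos). Lpar1 and Moxd1 were positively related (r = 0.57, permutation p = 0.0248, adjusted p = 0.124; rho = 0.72, permutation p = 0.00318, adjusted p = 0.0237; r = 0.66 without the 2 farthest embryos).

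The same deviations of the 7 genes were related to the scores of 9 marker lists, each score being the mean log2 value of its genes, in 63 relations. Of these, 7 passed the adjusted threshold by Pearson's r and 6 by both coefficients. Tmem163 was inversely related to the score of 10 cortical projection neuron genes (r = -0.90 and rho = -0.96, each permutation p = 1e-05, the smallest that 100000 permutations can give; adjusted p = 0.000630 and 0.000315; r = -0.92 without the 2 farthest embryos). It was positively related to the midbrain dopaminergic score (r = 0.86, permutation p = 0.0001, adjusted p = 0.00315; rho = 0.77, permutation p = 0.00121, adjusted p = 0.0152; r = 0.78 without the 2 farthest embryos). The 3 embryos with the lowest Tmem163 values were also those with the highest cortical scores. Tmem163 was further inversely related to the scores of deep layer transcription factors (r = -0.81, permutation p = 0.000190, adjusted p = 0.00399; rho = -0.91, permutation p = 1e-05, adjusted p = 0.000315; r = -0.85 without the 2 farthest embryos) and of the medial ganglionic eminence (r = -0.76, permutation p = 0.00100, adjusted p = 0.0126; rho = -0.73, permutation p = 0.00297, adjusted p = 0.0312; r = -0.86 without the 2 farthest embryos).

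Nxph4 was likewise inversely related to the cortical score (r = -0.69, permutation p = 0.00480, adjusted p = 0.0432; rho = -0.81, permutation p = 0.000370, adjusted p = 0.00777; r = -0.67 without the 2 farthest embryos). Its relation to the midbrain score (r = 0.72, permutation p = 0.00360, adjusted p = 0.0378; rho = 0.53, permutation p = 0.0471, adjusted p = 0.211) rested on the 2 farthest embryos, without which r was 0.38. Lpar1 was related to the meningeal score within the 12 embryos whose meningeal score was at least 8.47 (r = 0.88, permutation p = 0.000370, adjusted p = 0.00583; rho = 0.86, permutation p = 0.000620, adjusted p = 0.00976; r = 0.86 without the 2 farthest embryos). For Moxd1 the same relation did not pass (r = 0.68, permutation p = 0.0162, adjusted p = 0.0928; rho = 0.66, permutation p = 0.0224, adjusted p = 0.171; r = 0.86 without the 2 farthest embryos).

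The score of 16 other subplate genes was not related past the adjusted threshold to any of the 7 genes. The highest coefficient was that of Nxph4 (r = 0.60, permutation p = 0.0182, adjusted p = 0.0957; rho = 0.58, permutation p = 0.0252, adjusted p = 0.171; r = 0.52 without the 2 farthest embryos). Tmem163 followed (r = 0.54, permutation p = 0.0377, adjusted p = 0.183; rho = 0.47, permutation p = 0.0802, adjusted p = 0.253; r = 0.38 without the 2 farthest embryos). For Lpar1 the coefficients were lower by Pearson (r = 0.33, permutation p = 0.228, adjusted p = 0.512; rho = 0.57, permutation p = 0.0299, adjusted p = 0.171; r = 0.51 without the 2 farthest embryos). St18 (r = 0.01, permutation p = 0.965, adjusted p = 0.981; rho = -0.11, permutation p = 0.704, adjusted p = 0.804; r = -0.00 without the 2 farthest embryos) and Nr4a2 (r = -0.43, permutation p = 0.108, adjusted p = 0.310; rho = -0.51, permutation p = 0.0535, adjusted p = 0.211; r = -0.70 without the 2 farthest embryos) had the lowest coefficients. Whether the 7 genes measure the subplate in this tissue was not tested beyond these relations.

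**Figure D3:**
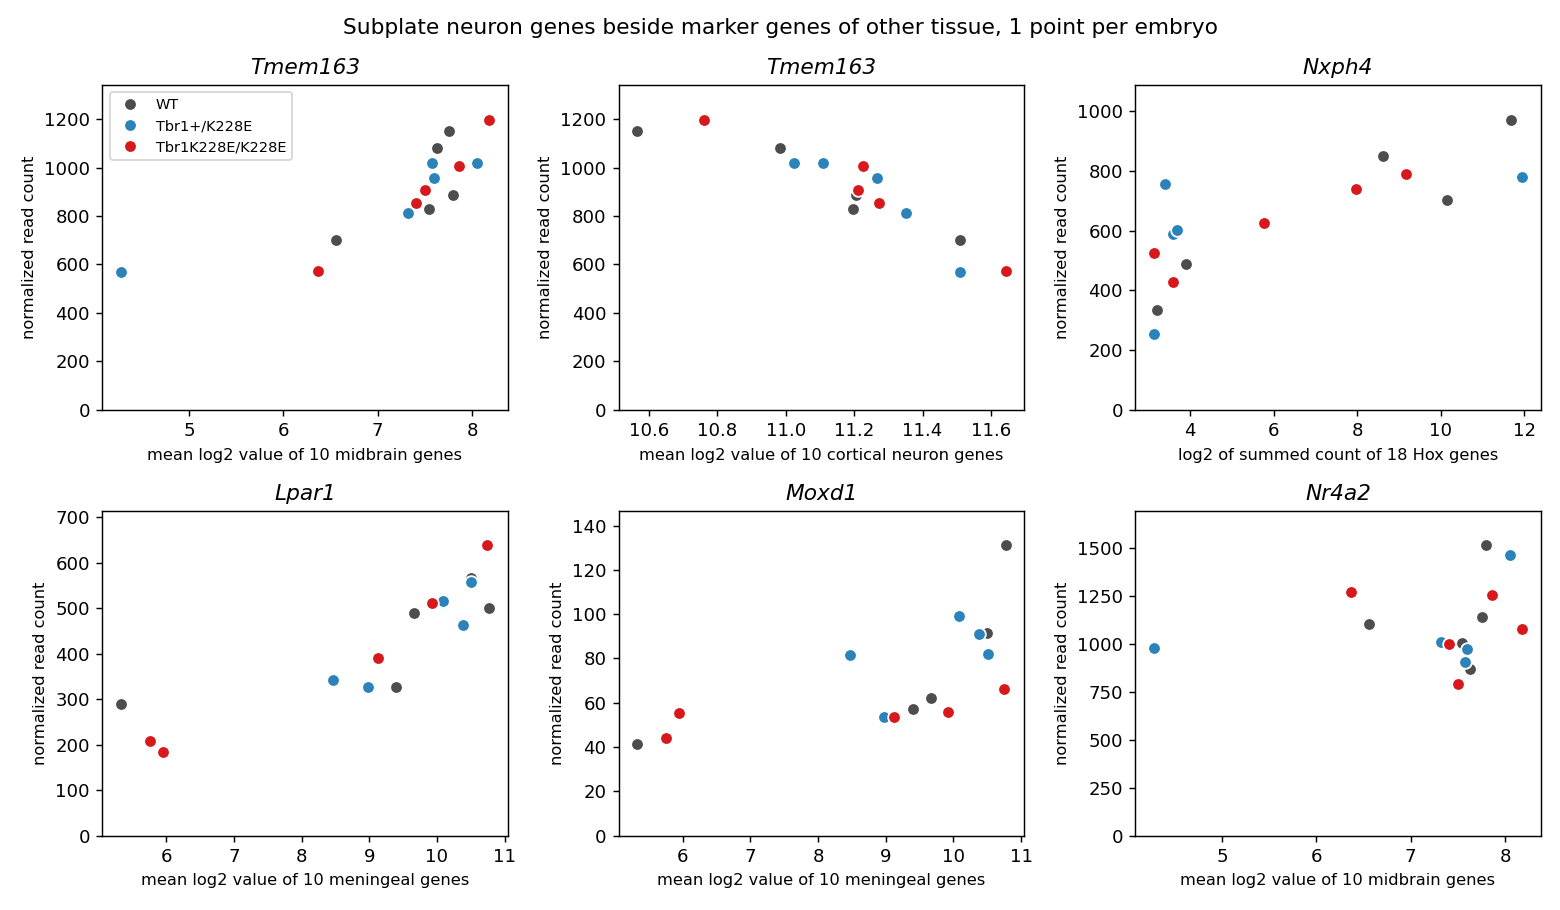
Normalized read counts of 5 subplate neuron genes (vertical axes, linear, from 0) against mean log2 values of 10 midbrain, cortical neuron, or meningeal genes, or the log2 of the summed count of 18 Hox genes, in the same embryos. Each point is an embryo and the colour gives its genotype. Tmem163 is lowest in the 3 embryos with midbrain scores of 4.28 to 6.56 and highest where cortical scores are low, and Lpar1 is lowest in the 3 embryos with meningeal scores of at most 5.95, whereas Nr4a2 is at 980 in the embryo with the midbrain score of 4.28.

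The genes whose deviations were most like those of each subplate gene were then named, among genes whose mean was 50 or more, with Pearson's r over 15 embryos as the measure. For Tmem163 these were Gata2 (0.97), Npnt (0.96), and Lxn (0.96), and for Nxph4 they were Skor2 (0.97), Rgmb (0.95), and Ebf1 (0.95). For Lpar1 they were Gm43302 (0.97), Ccdc8 (0.96), and Col4a6 (0.96), and for Moxd1 they were Ptgs1 (0.87), Crtap (0.87), and Col12a1 (0.86). The coefficients were lower for Nr4a2, with Coro7 (0.88), Psg16 (0.86), and Mettl17 (0.84), and for St18, with Tssk6 (0.86), Trmo (0.82), and Ooep (0.81). For Cplx3, Itgb3 (0.89), Cd36 (0.88), and Tacc1 (0.87) were the most alike. These coefficients are the extremes of 13541 genes each (13542 for Cplx3) and are given without a test.

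Males and females were compared in the same way, because each genotype held both sexes. Nr4a2 was 1231 ± 221 in 6 males and 998 ± 141 in 9 females, a difference of 0.30 on the log2 scale (95% confidence interval, 0.05 to 0.54), with the higher mean in males in 3 of 3 genotypes. It did not pass the adjusted threshold (limma, adjusted p = 0.410). Of the 7 genes, 0 passed (against 0.0788% of all genes) and 1, Nr4a2, had an unadjusted p under 0.05 (against 11.0% of all genes). The difference between Tbr1K228E/K228E and WT embryos did not differ between the sexes past the threshold for any of the 7 genes (limma, adjusted p of at least 0.856), and 0.00% of all genes passed that test.

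To place the 7 genes among other genes of the subplate, 16 further genes known in these neurons were examined. None of the 16 passed the threshold in any comparison (limma; 1, 0, and 1 at an unadjusted p under 0.05, against 3.23%, 1.79%, and 3.30% of all tested genes). In Tbr1K228E/K228E relative to WT embryos, 4 were higher and 12 lower, with a median log2 fold change of -0.06. Of all tested genes, 48.7% were higher in that comparison. Ngfr, the low-affinity neurotrophin receptor, had the smallest unadjusted p of this list (716 in WT, 518 in Tbr1+/K228E, and 404 in Tbr1K228E/K228E embryos on average; log2 fold change, -0.80; limma, adjusted p = 1.00). Like Nxph4, Ngfr was high in embryos with high Hox sums, at 942, 763, and 1067 in WT replicates 1, 2, and 4 and 413 and 397 in replicates 3 and 5, although Tbr1K228E/K228E replicate 2, with a Hox sum of 252, had an Ngfr value of 403. Kcnab1, a potassium channel beta subunit, was 309 to 322 in the Tbr1K228E/K228E and 252 to 277 in the Tbr1+/K228E embryos, without overlap, but did not pass the threshold (log2 fold change, 0.23; limma, adjusted p = 0.996). In that comparison 0.878% of all tested genes were without overlap.

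**Figure D4:**
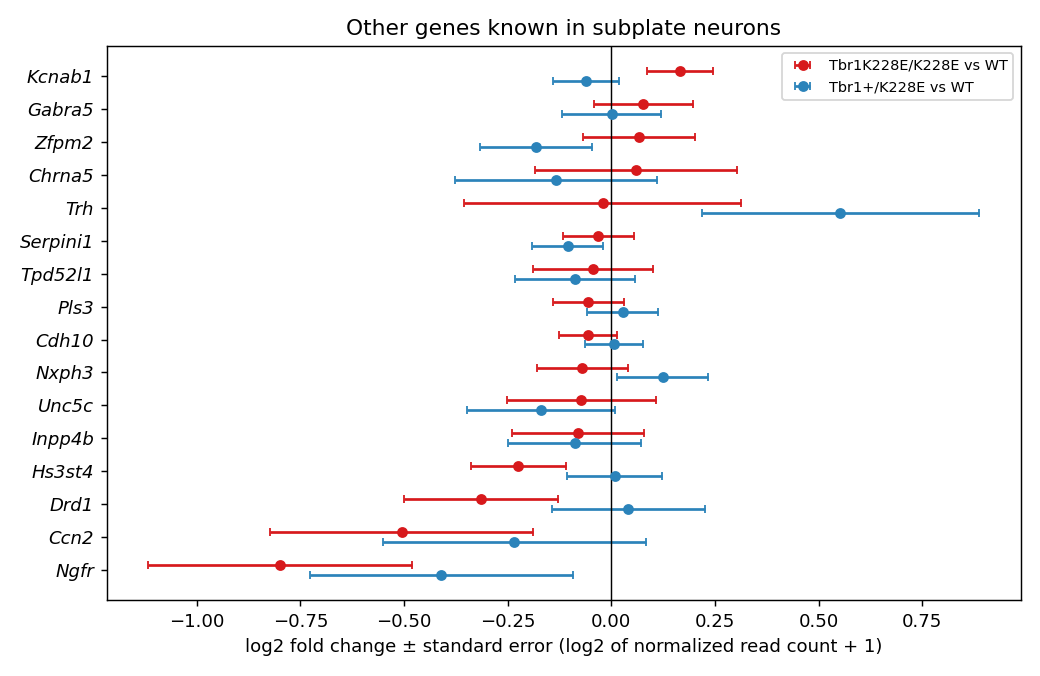
Log2 fold change of the 16 other subplate genes in Tbr1K228E/K228E (red) and Tbr1+/K228E (blue) relative to WT embryos, on the log2(normalized read count + 1) scale. Points are limma estimates and bars are standard errors (n = 5 embryos per genotype). In Tbr1K228E/K228E relative to WT embryos, Ngfr is lowest at -0.80 and Kcnab1 highest at 0.17, and none of the 16 genes passed the adjusted threshold.

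No close relative or known partner of the 7 genes passed the threshold. Of 15 tested relatives, such as other complexins, neurexophilins, and lysophosphatidic acid receptors, 0 passed in any comparison (limma). At an unadjusted p under 0.05 were 2, 1, and 2, against 3.23%, 1.79%, and 3.30% of all tested genes. Without overlap between the genotypes were 0, 1, and 1, against 0.594%, 0.260%, and 0.878%. In Tbr1K228E/K228E relative to WT embryos, 6 relatives were higher and 9 lower. Cplx2, the abundant forebrain complexin, had a log2 fold change of 0.11, as did Myt1l, a neuronal relative of St18 (limma, adjusted p = 1.00 for each). The 17 partners included the retinoid X receptors that pair with Nr4a2, the SNARE proteins that complexins bind, lipid phosphatases that degrade lysophosphatidic acid, and the neurexins. Of these, 0 passed in any comparison (limma), against 0.127%, 0.00%, and 0.0788% of all tested genes. Likewise, 0 had an unadjusted p under 0.05, against 3.23%, 1.79%, and 3.30%. Without overlap were 0, 0, and 1, against 0.594%, 0.260%, and 0.878%. In Tbr1K228E/K228E relative to WT embryos, 6 partners were higher and 11 lower. Plpp2, one of the lipid phosphatases, had a log2 fold change of 0.22 there and Rxra, a retinoid X receptor, of -0.17. Among 11 transcription factors of early-born deep layer and subplate neurons, only Tbr1 passed the threshold, in Tbr1K228E/K228E relative to WT embryos (limma). In that comparison, 2 higher genes and 1 lower gene had an unadjusted p under 0.05, against 3.23% of all tested genes. In Tbr1+/K228E relative to WT embryos 1 gene, Tbr1, did, against 1.79%. Between the mutant genotypes 1 higher and 2 lower genes did, against 3.30%, and 2 genes were without overlap, against 0.878%. Nfia, a nuclear factor I family member, was 2933 in WT and 2111 in Tbr1K228E/K228E embryos on average (log2 fold change, -0.46; limma, unadjusted p = 0.00522, adjusted p = 0.907). The study, which used DESeq2 and another adjustment, reported Nfia among its downregulated genes in that comparison.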

How the data were processed

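RNA-Seq was available for 15 mouse embryos, whose labels gave the genotype, replicate number, and sex. Per the methods of the study, libraries were made with a TruSeq kit that does not mark strand, and the authors quantified transcripts with Salmon 0.11.2 on GRCm38, imported them to genes with tximport, and scaled them with DESeq2 1.22.2 size factors in R 3.5.3. The deposited values are this normalized signal per gene and embryo, and whole reads could not be recovered from them, so no count model was fitted. Of 19475 genes, 19452 were matched to GENCODE annotation of GRCm38 for positions and exonic length. The 16507 genes whose mean reached 5 were tested with limma 3.58.1 in R 4.3.3, by lmFit and trended eBayes on log2(value + 1), with all 15 embryos in a single fit and the Benjamini-Hochberg adjustment (threshold 0.05). All 7 subplate genes passed the filter. Single genes were also compared by two-sided exact permutation tests (smallest p, 0.00794), and correlations used 100000 permutations. The genes named were the 7, from each list the genes past the threshold and the 2 with the smallest p in Tbr1K228E/K228E relative to WT, and the 3 most alike by r. Pitx3, Slc6a3, Crx, and Col1a1 were set beside the genes after their values were seen. The genes and lists were chosen with earlier results of these data known. Alternatives were other pseudocounts, filters, covariates, a quantile scaling, a replicate block, and leaving out each embryo. The P-values of the comparisons set a difference against the spread between embryos, and those of the correlations come from permuted embryos.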

Additional observations from a re-analysis of the deposited data

Results flagged for a closer look

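Nr4a2 was 1462 in Tbr1+/K228E replicate 5, far above the other 4 embryos of that genotype (908 to 1009), and the gap made up 0.818 of the range of the group, above the 95% critical value of Dixon for 5 values. This was the only such value among 21 groups of 5 (7 genes in 3 genotypes), in which chance gives about 1 in 20. The same embryo had the highest Pitx3 value of all embryos, at 42.3. Tbr1K228E/K228E replicate 2, however, had a Pitx3 value of 40.7 and a Nr4a2 value of 1077, within the range of its genotype.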

How the results depend on the processing

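None of the 7 subplate genes passed the threshold under any of the 543 alternative fits of single genes and genotype comparisons (lowest limma adjusted p, 0.904), and 488 of these kept their direction. The number of genes past the threshold among all genes moved more. For Tbr1K228E/K228E relative to WT it was 21, and it was 12 with the compared genotypes alone, 48 with the cortical score as a covariate, 42 with an empirical null, and 7 without the 3 embryos of low meningeal score. Between Tbr1+/K228E and WT it was 0 (limma; 295 at an unadjusted p under 0.05), and 1 with the cortical score as a covariate. For Tbr1K228E/K228E relative to Tbr1+/K228E it was 13, and it was 35 with the cortical score and 0 without the 3 embryos of low meningeal score. Between the sexes it was 13, and 7 with an empirical null. Replicate numbers were shared between genotypes. In Tbr1K228E/K228E and WT, same-numbered embryos had a mean correlation of deviations of 0.243, against -0.0586 for other pairs, with 4 of 5 pairs over 0.1 and 5 of 10 embryos correlating best with their own number. In the comparisons of Tbr1+/K228E with WT and with Tbr1K228E/K228E the means were 0.0686 and 0.0111, with 2 of 5 pairs over 0.1 in each and 2 and 4 of 10 embryos. Since not every pair was over 0.1 and the labels name no shared litter or batch, the numbers were not treated as pairs. With the replicate number as a block, 16, 0, and 2 genes passed, and no subplate gene did. Leaving out each embryo in turn gave 12 to 21, 0 to 0, and 6 to 8 genes.

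The sign turned in the other 55 fits, with an estimate of at most 0.32 in size. The log2 fold change between Tbr1K228E/K228E and WT was 0.12 for Lpar1 and 0.025 for Nxph4 with the 3 embryos of low meningeal score left out, 0.15 for Nxph4 and 0.042 for Tmem163 with the Hox score as a covariate, 0.13 for Nxph4 and 0.088 for Tmem163 with the cortical score as a covariate, and 0.0041 for Nxph4 and 0.0018 for Tmem163 with the meningeal score as a covariate. The log2 fold change between Tbr1+/K228E and WT was -0.11 for Lpar1 with the meningeal score as a covariate, -0.097 for Lpar1 and -0.018 for Moxd1 with the 3 embryos of low meningeal score left out, 0.11 for Nxph4 and 0.041 for Tmem163 with the Hox score as a covariate, 0.034 for Nxph4 and 0.050 for Tmem163 with the midbrain score as a covariate, and 0.046 for Nxph4 and 0.074 for Tmem163 with the cortical score as a covariate. The log2 fold change between Tbr1K228E/K228E and Tbr1+/K228E was -0.00089 for Nr4a2, -0.076 for Nxph4 and -0.10 for Tmem163 with the midbrain score as a covariate, -0.079 for Nr4a2 and 0.039 for Lpar1 with the meningeal score as a covariate, and -0.15 for Nr4a2 and 0.22 for Lpar1 with the 3 embryos of low meningeal score left out. Outside these genotype fits, the difference of Cplx3 between males and females turned to -0.025 with a pseudocount of 10. Leaving out single embryos turned the sign of further genotype estimates. Estimates between Tbr1K228E/K228E and WT then ranged from -0.14 to 0.056 for Nr4a2, -0.32 to 0.40 for Cplx3, -0.27 to 0.12 for Nxph4, -0.031 to 0.19 for St18 and -0.16 to 0.10 for Tmem163. Estimates between Tbr1+/K228E and WT then ranged from -0.19 to 0.037 for Nr4a2, -0.097 to 0.14 for Lpar1, -0.39 to 0.12 for Nxph4, -0.16 to 0.035 for St18, -0.018 to 0.39 for Moxd1 and -0.19 to 0.051 for Tmem163. Estimates between Tbr1K228E/K228E and Tbr1+/K228E then ranged from -0.045 to 0.14 for Nr4a2, -0.16 to 0.25 for Nxph4 and -0.10 to 0.20 for Tmem163. The cause of these shifts was not tested. The covariate with the meningeal score and the removal of 3 embryos were chosen after the data were seen. With a mean of at least 50 as the filter, Cplx3 could not be tested, since its values are too low. No interval for counting error can be given for normalized values.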

Other observations

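The other marker lists described the tissue around the subplate. Of 145 distinct genes on the 14 lists other than the 7 subplate genes, 1 (Tbr1) passed the threshold in Tbr1K228E/K228E relative to WT embryos, 0 in Tbr1+/K228E relative to WT, and 0 between the mutant genotypes (limma), and 8, 5, and 7 had an unadjusted p under 0.05. The latter were 5.52%, 3.45%, and 4.83% of the 145 genes, against 3.23%, 1.79%, and 3.30% of all tested genes. In the same comparisons 0.127%, 0.00%, and 0.0788% of all tested genes passed the threshold. Among cortical projection neuron genes, Fezf2, a factor of subcerebral projection neurons, was 1400 in WT, 1625 in Tbr1+/K228E, and 2157 in Tbr1K228E/K228E embryos on average (log2 fold change of Tbr1K228E/K228E relative to WT, 0.66; limma, adjusted p = 1.00), and Bhlhe22 had a log2 fold change of 0.45. In the same comparison the midbrain dopaminergic genes Foxa1 and Slc18a2 had log2 fold changes of 0.45 and 0.10, the claustrum genes Synpr and Gnb4 of 0.12 and 0.06, and the interneuron and ganglionic eminence genes Npy and Lhx8 of 0.26 and 0.46. The hypothalamic genes Hcrt and Sim1 had values of 0.86 and 0.48, the oligodendrocyte lineage genes Cspg4 and Pdgfra of -0.16 and -0.20, and the radial glia genes Emx2 and Hes1 of 0.12 and -0.14. For the photoreceptor and pineal genes Crx and Rcvrn they were 0.84 and 0.52, for the hindbrain genes Hoxd4 and Hoxb4 -1.86 and -2.17, and for the meningeal genes Col1a1 and Foxc1 -1.96 and -0.57. None of these genes passed the threshold, and the medians of the Hox and meningeal lists in this comparison were -1.52 and -1.03.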
